A study of Mus musculus with 15 samples.

Results

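Open chromatin of whole adult brain was set against that of whole adult heart, using the DNase-seq peak list of each tissue. The brain list held 63330 peaks and the heart list 70532 peaks, together 133862 of the 607443 peaks in the 8 DNase lists of the series. A brain peak and a heart peak that shared at least 1 bp were called paired. A brain peak without a heart peak was called brain-only and a heart peak without a brain peak heart-only, whatever the other lists held. The percentile of a peak is its rank by the authors' signal height within its own list, where 100 is the highest.

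Both tissues were collected from adult C57BL/6J mice, flash frozen, pulverized and cut with added DNase I, with 1 library per tissue. The labels give neither the sex nor the number of animals. Lists also exist for adult kidney, adult liver, skin fibroblasts in culture, embryonic stem (ES) cells, and preSertoli cells, which support the germ cells of the fetal testis, at the embryonic stages E13.5 and E15.5. Endogenous nucleases cut the chromatin of the preSertoli cells, whereas the other 4 of these lists came from chromatin cut with added DNase I. An H3K27ac domain list, which marks active promoters and enhancers, exists for E13.5 preSertoli cells alone. Mm9 gene annotation was not used here, so peaks are given by position without gene names, and the tissue labels were not checked against marker genes.

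DNase I cuts DNA where nucleosomes are displaced or loosened, and such hypersensitive sites mark promoters, enhancers and insulators. Sites at promoters of broadly used genes and at insulators tend to be open in most tissues, while distal enhancers tend to be open in fewer cell types. Whole brain is a mixture of neurons, astrocytes, oligodendrocytes, microglia and vessel cells. Whole heart holds cardiomyocytes together with endothelial cells, fibroblasts and smooth muscle cells. In such mixtures a weak or missing peak can come from fewer cells of a type or from less open chromatin per cell, and these cannot be told apart.

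The lists were alike in scale. The brain list covered 29.5 Mb with a median width of 358 bp, and the heart list covered 30.3 Mb with a median of 344 bp. Signal height had a median of 0.0726 and a highest value of 1.16 in brain, and a median of 0.0621 and a highest value of 1.12 in heart. The number of reads behind each list is unknown. With 1 library per tissue no p-value compares brain with heart. The 95% intervals given below treat peaks as independent and cover counting error only.

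By the 1 bp rule, most open sites of either tissue had a counterpart in the other. Of the brain peaks, 39496 (62.4%, Wilson interval 62.0 to 62.7) overlapped a heart peak and 23834 (37.6%) were brain-only. Of the heart peaks, 40112 (56.9%, interval 56.5 to 57.2) overlapped a brain peak and 30420 (43.1%) were heart-only. When 50% of both peaks had to overlap, 50.2% of brain and 45.0% of heart peaks were paired, and with midpoints within 150 bp 55.2% of brain and 49.6% of heart peaks, so the majority in heart rested on the 1 bp rule. The heart list is the longer one, and when it was cut to the length of the brain list by signal height, the shares paired became 60.1% of brain peaks and 60.7% of heart peaks. Since 95.5% of the groups of overlapping peaks joined 1 peak of each tissue, equal lengths bring the shares of the tissues close by construction. This cut therefore cannot show whether the tissues differ in the share paired.

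The X chromosome had the highest share of paired peaks in both lists. On autosomes the share ran from 59.1% on chromosome 18 to 69.7% on chromosome 19 in brain, and from 52.1% on chromosome 18 to 60.6% on chromosome 11 in heart. On the X chromosome 70.7% of 1086 brain peaks and 72.6% of 1053 heart peaks were paired, above every autosome in both lists. In brain the lead over chromosome 19 was narrow. The X chromosome held 1.33% of brain-only peaks (interval 1.20 to 1.49) and 0.947% of heart-only peaks (0.844 to 1.06), against 1.94% of paired brain peaks and 1.91% of paired heart peaks.

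Paired peaks lay at nearly the same place. They formed 38847 groups, of which 37112 (95.5%) joined 1 brain peak with 1 heart peak. A single brain peak spanned several heart peaks in 1139 groups, and a single heart peak spanned several brain peaks in 545. In the one-to-one pairs the midpoints were a median of 21 bp apart, and 93.0% lay within 150 bp of each other. The narrower peak lay wholly inside the wider one in 72.7% of these pairs. Brain peaks had a median width of 429 bp and heart peaks 424 bp, with a median ratio of brain over heart width of 1.04.

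Few peaks sat at the edge of the pairing rule. Among paired peaks, 30 of the brain list and 29 of the heart list shared 10 bp or less with their partner. Among unpaired ones, 25 brain-only and 22 heart-only peaks lay within 10 bp of a peak of the other tissue. Within 500 bp the numbers were 2223 brain-only (9.33%) and 2517 heart-only peaks (8.27%). The typical unpaired peak was much farther away, with a median distance between midpoints of 8450 bp from a brain-only peak to the nearest heart peak and 6944 bp from a heart-only peak to the nearest brain peak.

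Unpaired sites were weak sites in both tissues. Brain-only peaks had a median percentile of 28.4 (interval 28.1 to 28.9), against 65.8 for paired brain peaks. Heart-only peaks had a median percentile of 30.2 (29.9 to 30.6), against 68.6 for paired heart peaks. In signal height the medians were 0.0506 for brain-only and 0.107 for paired brain peaks, and 0.0464 for heart-only and 0.0924 for paired heart peaks. Above the 50th percentile lay 21.3% of brain-only and 23.9% of heart-only peaks, against 67.3% of paired brain and 69.8% of paired heart peaks. Peaks near the calling threshold can be missed in 1 of 2 libraries by sampling alone, and without replicates this was not tested.

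The share unpaired fell at every step of signal height. In the lowest 10% of each list, 70.2% of brain peaks and 76.6% of heart peaks were unpaired. In the group from the 50th to the 60th percentile the shares were 34.9% in brain and 43.9% in heart, and from the 80th to the 90th percentile 5.53% in brain and 5.94% in heart. In the top 10% only 15 of 6332 brain peaks (0.237%, interval 0.144 to 0.391) and 3 of 7055 heart peaks (0.0425%, 0.0145 to 0.125) were unpaired. The strongest 1% held no unpaired peak, among 633 brain peaks and 706 heart peaks.

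**Figure D1:**
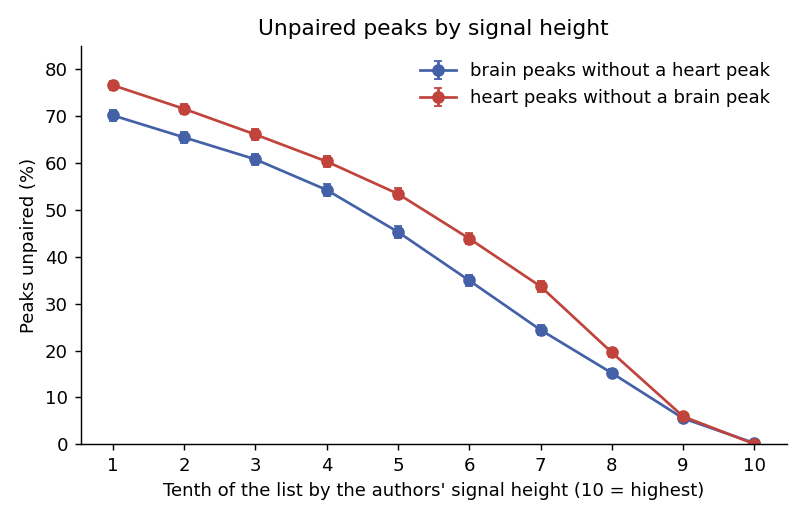
The share of peaks without a partner in the other tissue (%, vertical) in 10 equal groups of each list ordered by the authors' signal height (horizontal, 10 = highest), with Wilson 95% intervals as bars. Brain starts at 70.2% and heart at 76.6% in the lowest group, and both lie below 1% in the highest.

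Strength went together across the tissues in paired sites. Over the 37112 one-to-one pairs, Spearman's rho between brain and heart percentile was 0.77 and between widths 0.71, given as a description across sites that share their underlying sequence and its mappability. Percentiles differed by 10 points or less in 55.0% of pairs. Of the one-to-one brain peaks in the top 10% of the brain list, 89.2% had a heart partner in the top 10% of the heart list, and of the heart peaks in the top 10%, 80.2% had a brain partner in the top 10%. A gap of 50 points or more was found in 540 pairs (1.46%) with brain above heart and in 1055 pairs (2.84%) with heart above brain. Ranks come from lists of different lengths, so a gap does not by itself show a change in openness.

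Pairs with a wide gap in rank also differed in width. Where brain stood 50 or more points above heart, the median width was 595 bp in brain and 134 bp in heart. Where heart stood 50 or more points above brain, it was 155 bp in brain and 554 bp in heart. In pairs within 10 points the widths were 556 bp in brain and 514 bp in heart. With brain above, the median percentile was 72.7 in brain and 10.6 in heart, and with heart above, it was 11.4 in brain and 74.6 in heart.

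**Figure D2:**
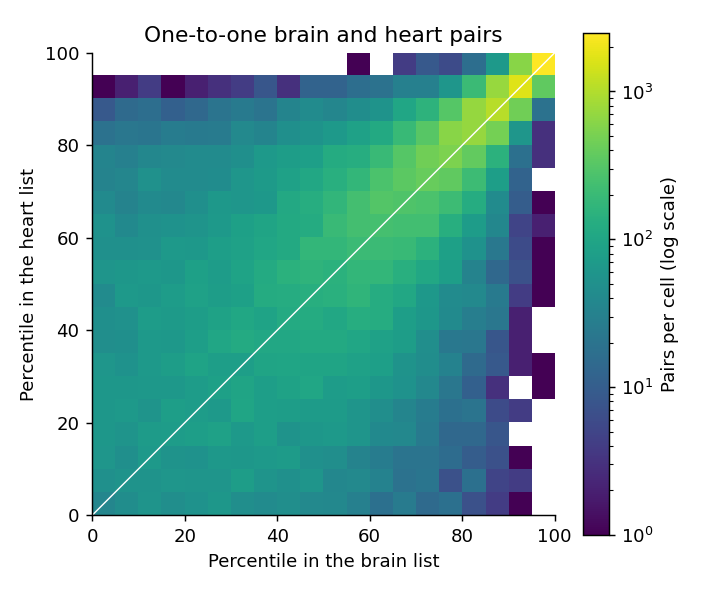
Density of the 37112 one-to-one pairs by percentile in the brain list (horizontal) and in the heart list (vertical), with the number of pairs per cell on a log colour scale and the line of equal percentile in white. The pairs crowd along the line toward the upper right corner, and the corners far from the line are sparse.

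The largest gaps can be read at single sites. On chromosome 16 a brain peak of 1121 bp (chr16:28752636-28753756, mm9 as for all positions) had a signal height of 0.348 and percentile 91.8, and the heart peak inside it (chr16:28753303-28753359) was 57 bp wide with a height of 0.0358 and percentile 2.86. On chromosome 13 a brain peak of 742 bp (chr13:83884392-83885133) at percentile 93.6 held a heart peak of 129 bp at percentile 7.28. On chromosome 17 a brain peak of 592 bp (chr17:27821791-27822382) at percentile 86.3 held a heart peak of 34 bp at percentile 0.229. In the other direction, a brain peak of 59 bp at percentile 0.968 lay within a heart peak of 725 bp (chr6:91964743-91965467) with a height of 0.232 and percentile 90.5. A brain peak of 54 bp at percentile 0.587 lay within a heart peak of 926 bp (chr15:103088374-103089299) at percentile 87.2, and a brain peak of 46 bp at percentile 0.968 within a heart peak of 519 bp (chr7:112887452-112887970) at percentile 86.3. Each of these 6 sites also had a peak in some other list, as did 96.2% of all paired brain and 96.3% of all paired heart peaks.

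At the other end stood sites that led both lists. The pair with the best lower percentile was the first peak of both lists, on chromosome 17, spanning 6172 bp with a signal height of 1.16 in brain (chr17:39979780-39985951) and 6184 bp with a height of 1.12 in heart. The next, on chromosome 11, was 768 bp wide in brain (chr11:108872828-108873595) and 786 bp in heart, and ranked 2 in brain and 4 in heart. The next, on chromosome 5, was 1670 bp wide in brain (chr5:121901647-121903316) and 1739 bp in heart, ranked 7 in brain and 9 in heart, and was the one of the 3 that overlapped an H3K27ac domain. All 3 had a peak in all of the other 6 lists. The widest peak of each list, of 18240 bp in brain and 20056 bp in heart, lay at one place on chromosome 11 (chr11:3052036-3070275 in brain) and was also found in all of the other 6 lists. Mappability and copy number at these places were not examined, so the height or width of these peaks cannot be read as openness alone.

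Unpaired peaks were narrow, in step with their low signal. Brain-only peaks had a median width of 248 bp (interval 246 to 251), against 437 bp for paired brain peaks. Heart-only peaks had a median width of 256 bp (254 to 258), against 429 bp for paired heart peaks. Peaks of 1000 bp or more made up 1.12% of brain-only and 0.542% of heart-only peaks, against 14.3% of paired brain and 11.1% of paired heart peaks. Peaks under 200 bp made up 36.5% of brain-only and 35.2% of heart-only peaks, against 11.1% of paired brain and 11.2% of paired heart peaks.

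Within groups of like signal height, unpaired peaks were mostly as wide as paired peaks or wider. Heart-only peaks had the larger median in each group below the top 10% of the heart list, and brain-only peaks had it from the 30th to the 80th percentile of the brain list. From the 60th to the 70th percentile the median width was 464 bp for brain-only and 397 bp for paired brain peaks, and 438 bp for heart-only and 382 bp for paired heart peaks. From the 70th to the 80th percentile it was 552 bp for brain-only and 471 bp for paired brain peaks, and 522 bp for heart-only and 447 bp for paired heart peaks. In the lowest 10% the classes lay within 3 bp of each other, at 97 bp for brain-only and 98 bp for paired brain peaks, and 98 bp for heart-only and 95 bp for paired heart peaks. In the top 10% the unpaired peaks were the narrower ones, at 891 bp for the 15 brain-only and 1024 bp for paired brain peaks, and 832 bp for the 3 heart-only and 929 bp for paired heart peaks.

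**Figure D3:**
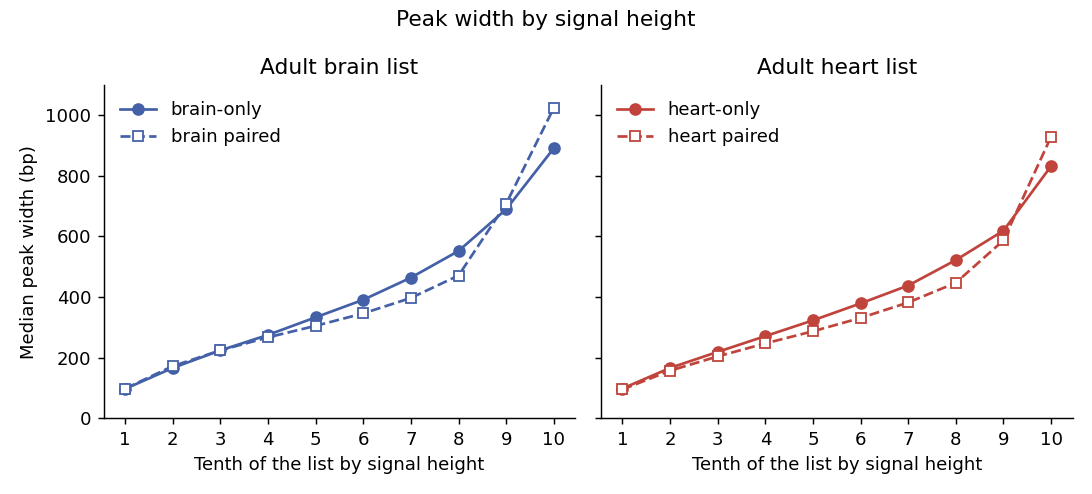
Median peak width (bp, vertical) in 10 equal groups of the brain list (left) and heart list (right) ordered by signal height, for unpaired peaks (filled circles) and paired peaks (open squares). Unpaired peaks are wider than paired peaks in the middle of the brain list and in every heart group but the top one, for example 552 bp against 471 bp in the eighth brain group, and narrower in the top group, which holds 15 brain-only and 3 heart-only peaks.

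Whether unpaired peaks stood closer together than paired peaks depended on the number of peaks compared. With all peaks used, windows of 100 kb that held 5 or more peaks of the class took in 32.4% of 23834 brain-only and 49.5% of 39496 paired brain peaks, and 48.5% of 30420 heart-only and 50.8% of 40112 paired heart peaks. The median distance to the nearest peak of the same class was then 12508 bp for brain-only and 8665 bp for paired brain peaks, and 7319 bp for heart-only and 8085 bp for paired heart peaks. Larger classes fill windows more often, so all classes were next brought to 23834 peaks, the number of brain-only peaks, by keeping the highest signal heights. At equal numbers the dense windows took in 32.4% of brain-only peaks (interval 31.8 to 33.0), against 27.9% of paired brain peaks. They took in 39.0% of heart-only peaks (38.4 to 39.6), against 30.8% of paired heart peaks. The median distance to the nearest peak of the same class was 12508 bp for brain-only and 15789 bp for paired brain peaks, and 9638 bp for heart-only and 14224 bp for paired heart peaks. Under this cut the difference in brain depended on scale and threshold. With windows of 200 kb the share was 55.9% for brain-only and 56.3% for paired peaks, and among peaks above the 50th percentile, with 8838 per class, it was 6.31% for brain-only and 6.14% for paired peaks. In heart it was 63.1% for heart-only and 59.9% for paired peaks at 200 kb, and 10.8% for heart-only and 7.45% for paired peaks above the 50th percentile.

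Cutting by signal height keeps strong paired peaks and all brain-only peaks, so the classes were also thinned evenly over their order of signal height, a choice made after the data were seen. The shares in 100 kb windows were then 32.4% for brain-only and 27.6% for paired brain peaks, and 38.6% for heart-only and 28.8% for paired heart peaks. In 200 kb windows they were 55.9% for brain-only and 54.9% for paired brain peaks, and 63.3% for heart-only and 55.8% for paired heart peaks. The order of the brain classes at 200 kb thus depended on how the numbers were made equal. A neighbour of the same class lay within 5 kb for 31.1% of brain-only and 25.2% of paired brain peaks, and for 35.1% of heart-only and 25.9% of paired heart peaks.

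**Figure D4:**
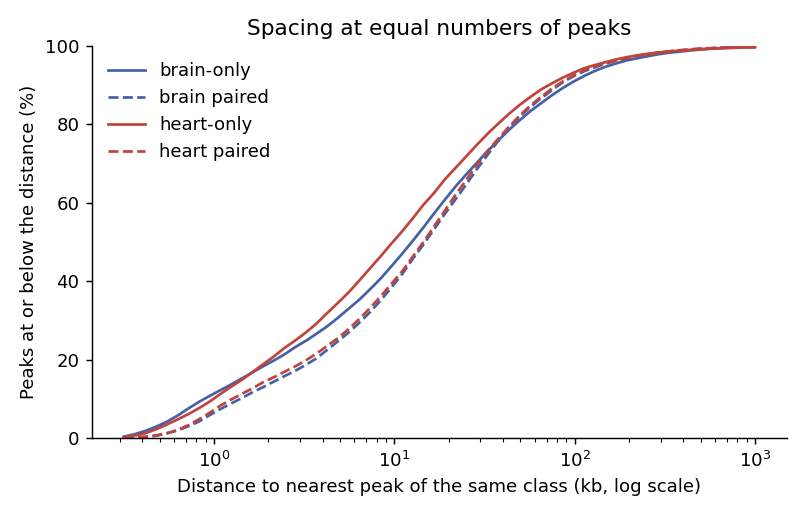
Share of peaks (%, vertical) whose nearest peak of the same class lies at or below a given distance (kb, horizontal, log scale), with every class at 23834 peaks by even thinning over signal height. The heart-only curve lies leftmost from a few kb upward, with 35.1% within 5 kb, and the paired curves lie close together at 25.2% in brain and 25.9% in heart.

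Windows dense in brain-only peaks overlapped in part with windows dense in heart-only peaks. With all peaks used, 1177 of the 16549 windows with any peak (7.11%) held 5 or more brain-only peaks and 2036 (12.3%) held 5 or more heart-only peaks. Both conditions were met in 257 windows, which is 21.8% of the brain-only and 12.6% of the heart-only ones, both above those shares over all windows. No heart-only peak lay in 324 (27.5%) of the dense brain-only windows, and no brain-only peak in 624 (30.6%) of the dense heart-only windows. Over the 16549 windows with any peak, Spearman's rho between counts was 0.06 for brain-only against heart-only, 0.19 for brain-only against paired brain and 0.40 for heart-only against paired heart peaks. This is a description, since counts in 1 window share its base composition and mappability.

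The densest brain-only window lay on chromosome 8 (chr8:96400001-96500000), with 17 brain-only and 2 heart-only peaks beside 2 paired brain peaks. Of its brain-only peaks 14 were in none of the other 6 lists, and their median percentile was 13.7. The next, with 16 brain-only peaks each, were on chromosome 5 (chr5:37200001-37300000), with 1 heart-only peak, and on chromosome 4 (chr4:139700001-139800000), with no heart-only peak. The brain-only peaks of the window on chromosome 5 had a median percentile of 37.9, and 10 of them were in none of the other 6 lists. Those of the window on chromosome 4 had a median percentile of 37.6, and 8 were in none of the other 6 lists. Over the whole brain-only class, 46.2% of peaks were in none of these lists.

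The densest heart-only window held more peaks than any brain-only one. On chromosome 1 (chr1:74000001-74100000) there were 1 brain-only and 31 heart-only peaks. Of these heart-only peaks 5 were in none of the other 6 lists and 10 overlapped a preSertoli H3K27ac domain. Over the whole heart-only class, 41.7% of peaks were in none of these lists and 15.3% overlapped such a domain. On chromosome 14 (chr14:70000001-70100000) there were 2 brain-only and 29 heart-only peaks beside 17 paired heart peaks. Of these 29 heart-only peaks, 11 were in none of the other 6 lists and 4 overlapped such a domain. On chromosome 8 (chr8:11300001-11400000) there were no brain-only and 25 heart-only peaks, with a median percentile of 46.1 and a highest of 85.8. Of these 25 heart-only peaks, 10 were in none of the other 6 lists and 1 overlapped such a domain.

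Runs were chosen after the data were seen and measure unbroken order along a chromosome, not closeness. A run is a row of successive peaks along a chromosome, in the joined lists, that all belong to 1 class. Runs of 5 or more took in 21.4% of brain-only and 22.2% of heart-only peaks. These shares also depend on the sizes of the classes, and paired peaks were not examined in this way. The longest brain-only run had 38 peaks over 2307 kb of chromosome 5 (chr5:25337560-27644207), with no heart peak among them, and 23 of the 38 were in none of the other 6 lists. The next brain-only run had 24 peaks over 1033 kb of chromosome 16 (chr16:9030991-10063885), 18 of them in none of the other 6 lists. The longest heart-only run had 24 peaks over 258 kb of chromosome 1 (chr1:60645766-60903982), and the next had 23 peaks over 500 kb of chromosome 6 (chr6:92894449-93394432). In the first, 13 peaks and in the second 14 peaks were in none of the other 6 lists. The shares over the whole classes were 46.2% of brain-only and 41.7% of heart-only peaks.

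The other 6 lists, which the pairing did not use, set paired and unpaired sites apart. Any of them was met by 80.2% of all brain peaks and 79.9% of all heart peaks. Among unpaired peaks the shares were 53.8% for brain-only (interval 53.2 to 54.5) and 58.3% for heart-only peaks (57.7 to 58.8). Among paired peaks they were 96.2% in brain and 96.3% in heart. All 6 lists held a peak at 1.81% of brain-only and 1.54% of heart-only peaks, against 54.4% of paired brain and 54.6% of paired heart peaks. Weak paired peaks were widely shared too: in the lowest 10% of the brain list another list met 50.6% of brain-only and 84.4% of paired peaks, and in the lowest 10% of the heart list 46.5% of heart-only and 85.3% of paired peaks.

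Brain-only and heart-only sites were found in all of the other 6 lists, in different proportions. ES cells held 31.6% of brain-only and 18.2% of heart-only peaks, a difference of 13.3 points (interval 12.6 to 14.1). Kidney held 17.3% of brain-only and 27.6% of heart-only peaks, a difference of -10.3 points (-11.0 to -9.65). Liver held 11.1% of brain-only and 24.1% of heart-only peaks, a difference of -13.0 points (-13.6 to -12.3). Each difference sets both classes against 1 list, and its size in points also depends on the length of that list, which was 96536 peaks in ES cells, 72370 in kidney and 72883 in liver. Paired peaks were held far more often and nearly alike in the 2 tissues. ES cells held 78.6% of paired brain and 79.3% of paired heart peaks. The shares were 86.7% and 86.7% in kidney, and 79.1% and 78.9% in liver.

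The remaining lists also held a larger share of brain-only than of heart-only sites. E13.5 preSertoli cells held 29.1% of brain-only and 23.3% of heart-only peaks, a difference of 5.80 points (5.05 to 6.55). E15.5 preSertoli cells held 26.6% of brain-only and 23.1% of heart-only peaks, and skin fibroblasts 20.3% of brain-only and 17.2% of heart-only peaks. Of paired brain and paired heart peaks, E13.5 preSertoli cells held 78.1% and 78.7%, and E15.5 preSertoli cells 79.4% and 79.9%. Skin fibroblasts held 71.7% of paired brain and 72.3% of paired heart peaks.

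**Figure D5:**
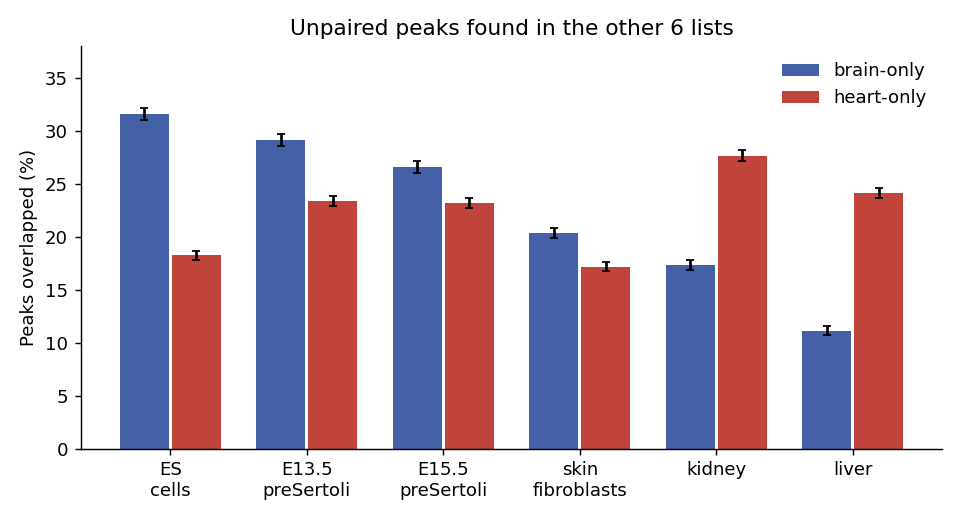
Share of brain-only peaks (left bar of each pair) and heart-only peaks (right bar) that overlap a peak of each of the other 6 lists (%, vertical), with Wilson 95% intervals. Brain-only peaks lie higher in ES cells (31.6% against 18.2%) and heart-only peaks higher in kidney (17.3% against 27.6%) and liver (11.1% against 24.1%).

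The differences in kidney, liver and ES cells were wider among strong unpaired peaks. Above the 50th percentile, kidney held 20.8% of 5082 brain-only and 43.7% of 7275 heart-only peaks, and liver 13.1% of brain-only and 36.2% of heart-only peaks. ES cells held 36.9% of these brain-only and 19.7% of these heart-only peaks. Above the 80th percentile, kidney held 26.8% of 365 brain-only (interval 22.6 to 31.6) and 64.9% of 422 heart-only peaks (60.3 to 69.3), and ES cells 55.6% of brain-only (50.5 to 60.6) and 23.9% of heart-only peaks (20.1 to 28.2). At this height E13.5 preSertoli cells held 57.8% of brain-only and 39.6% of heart-only peaks, and E15.5 preSertoli cells 50.4% and 34.8%. Skin fibroblasts held 42.5% of these brain-only and 31.8% of these heart-only peaks. Paired peaks above the 80th percentile were in kidney at 98.9% in brain and 99.4% in heart.

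Combinations of lists followed the same lines. After peaks in none of the other 6 lists, the commonest pattern was ES cells alone for brain-only sites (1377 peaks, 5.78%), and then skin fibroblasts, ES cells and both preSertoli stages together without kidney and liver (1046 peaks, 4.39%). For heart-only sites the commonest were liver alone (1706 peaks, 5.61%), kidney alone (1506 peaks, 4.95%), and kidney with liver (1469 peaks, 4.83%).

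The strongest unpaired sites were open in several other lists, though in fewer than strong paired sites. All 15 brain-only peaks in the top 10% were found in ES cells and in E13.5 preSertoli cells, 12 in skin fibroblasts, 8 in kidney and 2 in liver. Of the 6317 paired brain peaks in the top 10%, each of these lists held 99.4% or more. All 6 lists held 98.9% of them, against 2 of the 15 brain-only peaks. The highest brain-only peak, on chromosome 6 (chr6:77929104-77930084), was 981 bp wide with a signal height of 0.440 and ranked 2662 in the brain list. It was open in each of the other lists but liver, and the nearest heart peak was 353 kb away. The next were on chromosome 5 (chr5:37632677-37633535, height 0.420), chromosome 18 (chr18:23143496-23144250, 0.419), chromosome 17 (chr17:46624116-46625087, 0.408) and chromosome 7 (chr7:86649517-86650122, 0.382). The one on chromosome 18 was open in all of the other 6 lists, so that heart alone lacked a peak there.

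The strongest heart-only sites ranked lower in their list. The highest, on chromosome 8 (chr8:121224951-121225915), was 965 bp wide with a signal height of 0.241 and ranked 6329 in the heart list. It was open in liver, skin fibroblasts, ES cells and E13.5 preSertoli cells. The next were on chromosome 8 (chr8:71477687-71478518, height 0.235), chromosome 12 (chr12:13152094-13152881, 0.227), chromosome 2 (chr2:26975649-26976379, 0.219) and chromosome 15 (chr15:66392089-66392976, 0.219). Skin fibroblasts held all 5, and E15.5 preSertoli cells held none of them. The class as a whole did not show this order, with 17.2% of all heart-only peaks in skin fibroblasts and 23.1% in E15.5 preSertoli cells. Of the 422 heart-only peaks above the 80th percentile, skin fibroblasts held 31.8% (interval 27.5 to 36.3). E15.5 preSertoli cells held 34.8% of these 422 peaks (30.4 to 39.5), and the intervals overlap.

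Sites found in 1 tissue and in no other list were numerous and weak. There were 11001 such brain peaks, 46.2% of the brain-only class (interval 45.5 to 46.8), and 12690 such heart peaks, 41.7% of the heart-only class (41.2 to 42.3). Their median percentile was 27.3 in brain and 24.8 in heart, and none stood in the top 10% of its list. Brain-only peaks in some other list had a median percentile of 29.6, and heart-only peaks in some other list 34.3. A further 1518 brain peaks and 1485 heart peaks were paired with each other and absent from the other 6 lists, at median percentiles of 29.1 in brain and 32.2 in heart.

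Among strong unpaired peaks, the difference between the tissues in sites restricted to their own list depended on how the lists were cut. Above the 50th percentile, 43.0% of brain-only peaks (interval 41.7 to 44.4) and 28.9% of heart-only peaks (27.9 to 30.0) were in none of the other 6 lists. At or below it the shares were 47.0% of brain-only and 45.7% of heart-only peaks. When all 8 lists were first cut at their 50th percentile and paired anew, another list held 57.3% of brain-only (interval 56.2 to 58.3) and 55.8% of heart-only peaks (55.0 to 56.7). The direction was then reversed, but these intervals overlap. The classes of this cut, 8838 brain-only and 12246 heart-only peaks, also take in peaks whose partner fell below the cut. With whole lists and peaks above the 80th percentile, 100 of 365 brain-only peaks (27.4%, interval 23.1 to 32.2) and 60 of 422 heart-only peaks (14.2%, 11.2 to 17.9) were in none of them.

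The strongest of these restricted sites were picked after their values were seen. In brain they were on chromosome 11 (chr11:104051198-104051941, signal height 0.287, percentile 88.9), chromosome 2 (chr2:90663845-90664437, 0.266), chromosome 16 (chr16:10005555-10006127, 0.260), chromosome 4 (chr4:127819398-127820009, 0.252) and chromosome 15 (chr15:83867410-83867986, 0.245). The one on chromosome 16 lies within the run of 24 brain-only peaks given above, and its nearest heart peak was 67.6 kb away. In heart they were on chromosome 5 (chr5:75075377-75076214, signal height 0.208, percentile 88.9), chromosome 2 (chr2:68406375-68406888, 0.197), chromosome 9 (chr9:25334176-25335186, 0.193), chromosome 15 (chr15:64373955-64374546, 0.185) and chromosome 13 (chr13:29025186-29025756, 0.180). None of these 10 sites overlapped an H3K27ac domain of preSertoli cells. Such an overlap was rare among all peaks restricted to 1 tissue, at 4.04% in brain and 6.66% in heart.

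H3K27ac of E13.5 preSertoli cells, which belong to neither tissue, marked paired sites more often, by a margin that varied with signal height. Domains overlapped 10.8% of brain-only peaks (interval 10.4 to 11.2) and 15.3% of heart-only peaks (14.9 to 15.7), against 38.4% of paired brain and 39.1% of paired heart peaks. In the top 10% of the lists they overlapped 92.4% of paired brain and 88.8% of paired heart peaks. Among brain-only peaks the share was 13.4% in the lowest 10% of the list and 7.69% from the 60th to the 70th percentile, while among heart-only peaks it was 15.46% and 15.98% in the same groups. Among paired peaks of these groups it was 24.0% and 21.0% in brain, and 24.2% and 22.8% in heart. Peaks in none of the other 6 lists were marked in 4.04% of brain-only and 6.66% of heart-only cases, against 16.6% of brain-only and 21.4% of heart-only peaks that another list held.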

How the data were processed

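BWA 0.6.1-r104, SAMtools and bedtools are named for the DNase-seq libraries, and CASAVA 1.8.2, Bowtie and SICER for ChIP-seq, all with build mm9, per the submitters' processing notes. The caller and threshold behind the DNase peaks were not given in the sources used here. A list deposited by the authors holds the peaks of 1 library without a header, with the authors' score (ceiling 1000), the authors' signal height and the authors' −log10 p (1.3 to 16), as judged from the values. The H3K27ac list deposited by the authors gives positions alone.

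Overlaps of at least 1 bp, percentiles (average rank of signal height within a list), widths, distances between midpoints and counts in fixed windows of 100 kb were computed in Python 3.11.15 with NumPy 2.4.6, pandas 2.3.3 and SciPy 1.17.1 and tested on simulated data. Shares carry Wilson intervals, medians exact binomial intervals and differences of shares Newcombe intervals, all at 95% and for counting error alone. Named regions were the 5 highest unpaired peaks per tissue, 3 pairs per kind and 3 windows per class. Members and measures were chosen with earlier results of these data known.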

Additional observations from a re-analysis of the deposited data

How the results depend on the processing

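Of 70 recomputed values, 18 stayed inside the counting interval of the value reported and 52 lay outside it, since the intervals are narrow. Requiring 50% of both peaks to overlap paired 50.2% of brain and 45.0% of heart peaks, with median percentiles of 29.7 for brain-only and 31.7 for heart-only peaks, widths of 259 bp for brain-only and 266 bp for heart-only, 41.5% of brain-only and 48.4% of heart-only peaks in dense windows, and 63.0% of brain-only and 65.6% of heart-only in any other list. Requiring midpoints within 150 bp, since the lists give no summits, paired 55.2% of brain and 49.6% of heart peaks, with percentiles of 32.2 for brain-only and 33.3 for heart-only, widths of 274 bp for brain-only and 277 bp for heart-only, 37.9% of brain-only and 45.1% of heart-only in dense windows, and 60.6% of brain-only and 63.9% of heart-only in any other list. Also pairing peaks within 500 bp gave 65.9% of brain and 60.4% of heart peaks paired, percentiles of 29.7 for brain-only and 31.1 for heart-only, 28.8% of brain-only and 35.6% of heart-only in dense windows, and 52.1% of brain-only and 57.4% of heart-only in any other list.

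Keeping peaks above the 50th percentile of every list paired 72.1% of brain and 65.3% of heart peaks, with percentiles of 61.8 for brain-only and 62.9 for heart-only and widths of 446 bp for brain-only and 438 bp for heart-only, so brain-only peaks were the wider ones there. Dense windows then took in 6.31% of brain-only and 10.8% of heart-only peaks, which fewer peaks lower by construction. Any other list held 57.3% of brain-only and 55.8% of heart-only peaks, so the order of these classes changed, though their intervals overlap. The cause was not tested. Cutting the heart list to the length of the brain list paired 60.1% of brain and 60.7% of heart peaks, shares that equal lengths bring close by construction. The heart-only percentile was then 36.4 and the width 292 bp. Dense windows took in 33.5% of brain-only and 41.0% of heart-only peaks, and any other list held 55.6% of brain-only and 60.9% of heart-only peaks. Windows of 50 kb took in 13.54% of brain-only and 17.6% of heart-only peaks, and windows of 200 kb 55.9% of brain-only and 63.1% of heart-only peaks. The 4 other lists cut with added DNase I held 45.9% of brain-only and 50.2% of heart-only peaks. Autosomes alone and percentiles by the authors' score kept every value they were run on inside its interval. Even thinning kept the heart-only share in dense windows inside its interval, at 38.6%. It left the brain-only share unchanged by construction, since that class sets the number, and this value counts among those that stayed inside. No paired analysis was possible because each tissue has 1 library. The unknown read depth limits how far an absent peak can be read.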
